A study of Mus musculus with 6 samples.

Results

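Transcripts of 10 mural cell markers were measured in retinal endothelial isolates: Pdgfrb, Rgs5, Cspg4, Acta2, Tagln, Myh11, Kcnj8, Abcc9, Des and Notch3. Mural cells are the pericytes and smooth muscle cells that wrap blood vessels. The genes were taken by symbol from a table of 24421 genes, and all 10 were found and passed the filter on low counts. Mouse pups of a mixed BL6/CD1 background received tamoxifen on postnatal day 1, and their retinal endothelial cells were taken for bulk RNA-seq on postnatal day 7. Every pup carried floxed Smad4. The 3 Smad4-iECKO samples also carried Cdh5-CreERT2, a Cre recombinase that tamoxifen activates and that an endothelial promoter drives, and the 3 Smad4f/f samples carried no Cre. The labels do not say how the cells were isolated, or whether a sample was 1 pup or a pool, so that a p-value speaks only for the spread between samples.

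Pericytes sit in the basement membrane of capillaries, while smooth muscle cells ring the arterioles and contract. Endothelial cells recruit pericytes by secreting PDGF-B, which binds the receptor encoded by Pdgfrb. Retinal capillaries are known for their dense pericyte cover, which the blood-retina barrier needs. Cdh5-CreERT2 is not expected to recombine in mural cells, so these 10 genes bear on cells next to the targeted ones, as far as their transcripts come from mural cells. In bulk RNA, fewer cells of a type and less RNA per cell cannot be told apart.

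No member passed the test between the genotypes, and the groups overlapped in CPM for all 10. Notch3 had the largest fold change, 2.32-fold higher in Smad4-iECKO on average, but 1 library carried most of it. Set against the endothelial transcripts of the same library, Acta2 and Tagln were higher in all 3 Smad4-iECKO samples than in any Smad4f/f sample, whereas Myh11, the third smooth muscle gene, overlapped. On that scale 1.78% of all genes separated in this direction, or 16.5% without Smad4f/f replicate 2. The exact permutation p of 0.1 is the smallest that 3 against 3 allows. The separation of Acta2 and Tagln holds for the mean log2 CPM of the endothelial genes. Against their summed CPM, Acta2 overlapped while Tagln did not.

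The results turn on Tagln, Acta2 and Notch3. Tagln stayed apart against both endothelial references, but no promoter was at hand for it. Acta2 stood apart when set against the mean log2 CPM of endothelial genes, though not against their summed CPM. Notch3 was the 1 member called in the authors' deposited table, which called 13.4% of its 14225 genes with an adjusted p. With 1 column per sample it was not called. The promoters of Acta2 and Notch3 are therefore shown. Both are the 250 bases before the start of transcription in RefSeq's GRCm38.p6 table, which is the mm10 build, read 5′ to 3′ on the minus strand, the strand of the gene. Acta2 lies at chr19:34255374-34255623 and Notch3 at chr17:32166891-32167140. Capitals in Acta2 mark CArG-like elements, meaning the CArG box bound by serum response factor with at most 1 C or G in its core of 6 A or T bases. Capitals in Notch3 mark CAGAC or its reverse complement, a core that SMAD proteins can bind.
Acta2: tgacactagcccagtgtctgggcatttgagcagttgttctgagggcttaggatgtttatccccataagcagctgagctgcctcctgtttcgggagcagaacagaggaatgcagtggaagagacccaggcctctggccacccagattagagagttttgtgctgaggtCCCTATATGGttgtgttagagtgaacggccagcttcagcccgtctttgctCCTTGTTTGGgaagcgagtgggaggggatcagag
Notch3: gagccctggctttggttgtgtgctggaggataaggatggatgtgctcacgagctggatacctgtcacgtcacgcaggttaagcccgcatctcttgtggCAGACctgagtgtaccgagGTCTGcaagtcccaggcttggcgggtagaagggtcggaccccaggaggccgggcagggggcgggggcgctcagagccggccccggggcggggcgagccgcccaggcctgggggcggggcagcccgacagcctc

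Promoters of 7 of the 10 members were scanned, and Pdgfrb, Tagln and Myh11 were not among them. Member promoters on chromosome 18, where Pdgfrb lies, were left out of the scan. Acta2 held 2 CArG-like elements, which begin 84 and 34 bases before the start, and the other 6 promoters held none. Over all 32851 promoters of this length, 8.59% held at least 1. No member promoter held a CArG box without a substitution, which 1.47% of all promoters did. CAGAC was found on either strand in 5 of the 7 member promoters, against 42.2% of all promoters. TGGGAA, the core bound by the Notch effector RBPJ, was found on either strand in Acta2 and Abcc9, 2 of the 7, against 21.6% of all promoters. In Acta2 it overlapped the second CArG-like element. A match to letters is a description, not a bound site.

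Total counts ran from 12633018 to 23164952 in 5 libraries and reached 2233360 in Smad4-iECKO replicate 2. That library stood apart: its log2 CPM had correlations of 0.774 to 0.811 with the rest, whereas the rest correlated among themselves at 0.895 to 0.971, computed over genes (which share their libraries and are not replicates). Smad4 itself gave 109 to 157 CPM, counts scaled to library size, in Smad4f/f libraries and 93.8 to 134 CPM in those of Smad4-iECKO. The labels do not name the floxed exons, so a count over the gene does not check the genotype. The 18 endothelial markers, Pecam1 and Cdh5 among them, were detected in every library and took 0.179% to 0.869% of counts. The summed CPM of 8 rod photoreceptor genes was 4990 to 11010, against 1706 to 8647 for the endothelial list, so RNA of neural retina was present too.

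Transcripts of all 10 members were detected in all 6 libraries. The 10 members made up 0.288%, 0.0656% and 0.140% of all counts in replicates 1, 2 and 3 of Smad4f/f. The shares in replicates 1, 2 and 3 of Smad4-iECKO were 0.114%, 0.200% and 0.162%. The highest and the lowest share were thus both Smad4f/f samples. Each member varied over the 6 libraries by 4.26-fold (Pdgfrb) to 8.41-fold (Tagln) between its highest and lowest CPM. All 10 were lowest in Smad4f/f replicate 2. Of the 10, 6 peaked in Smad4f/f replicate 1, the other 4 in Smad4-iECKO replicate 2.

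**Figure D1:**
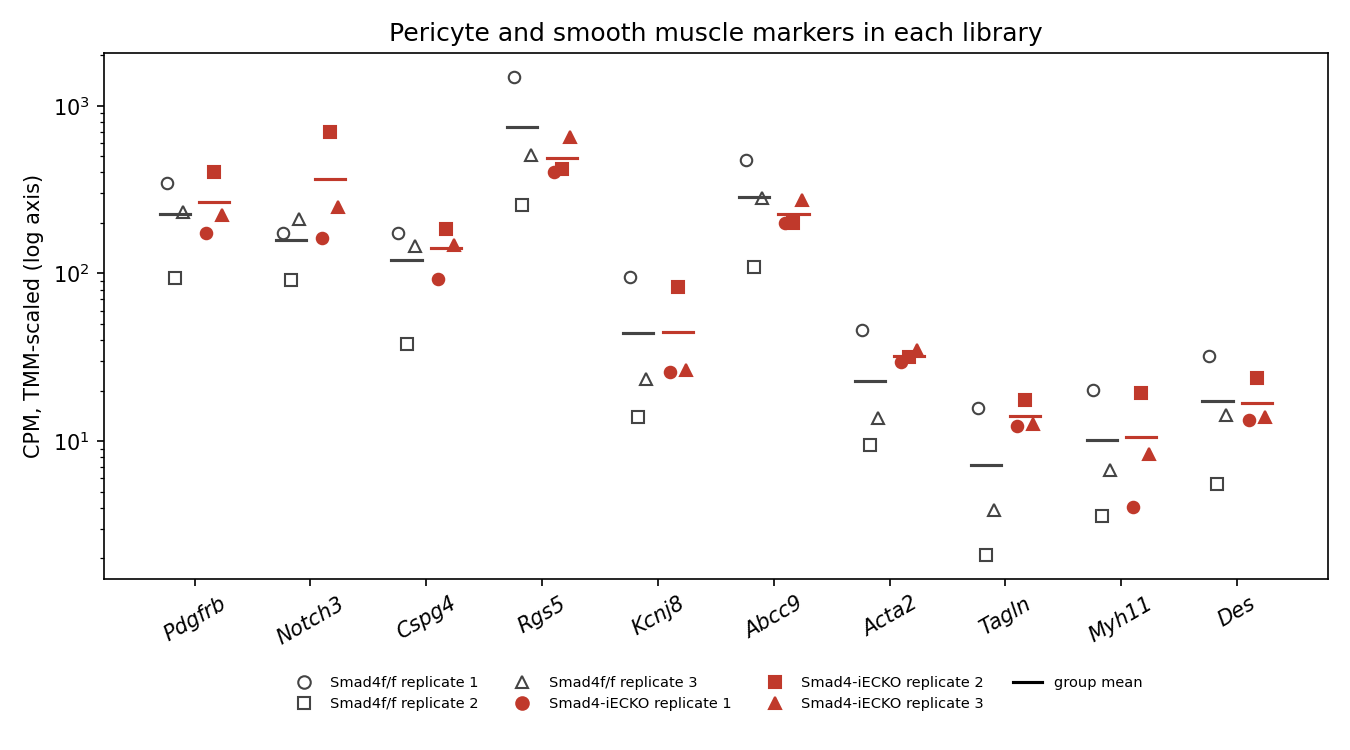
TMM-scaled CPM (log axis) of the 10 markers in each library, with Smad4f/f as open and Smad4-iECKO as filled symbols, replicate numbers as shapes that pair no samples, and lines for group means (n = 3 each). The groups overlap for all 10 genes, and Smad4f/f replicate 2 is lowest for each.

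Member levels followed endothelial levels from library to library. The mean log2 CPM of the 18 endothelial genes was 8.44, 5.94 and 7.52 for Smad4f/f (replicates 1, 2 and 3) and 6.84, 7.62 and 7.52 for Smad4-iECKO. The mean over the 10 members was 6.82, 4.57 and 5.68 for Smad4f/f and 5.66, 6.63 and 6.08 for Smad4-iECKO. All 6 libraries took the same rank by both means, in part by near ties. The endothelial mean was 7.516 in replicate 3 of Smad4f/f and 7.520 in replicate 3 of Smad4-iECKO. Both means share a library and its depth, so the shared rank is a description.

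**Figure D2:**
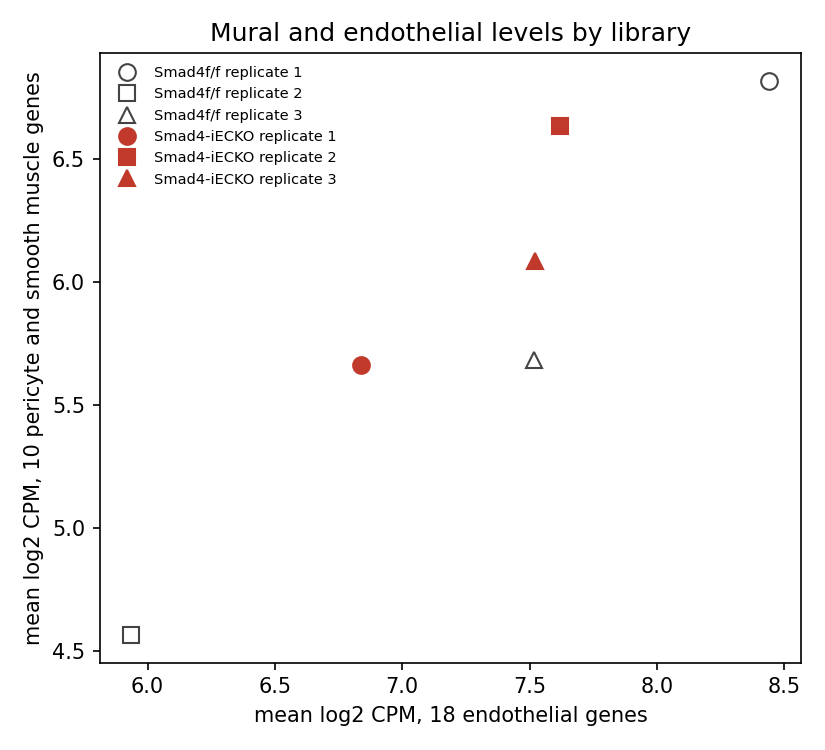
Mean log2 CPM of the 10 pericyte and smooth muscle genes (vertical) against that of 18 endothelial genes (horizontal), 1 point per library. The order of the libraries is the same on both axes, in part by near ties. It runs from Smad4f/f replicate 2 (5.94 and 4.57) to Smad4f/f replicate 1 (8.44 and 6.82).

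Per kilobase of exon, Rgs5 was the most abundant member, with a median over libraries of 101.5 CPM per kb. Pdgfrb followed at 41.7, Abcc9 at 28.3, Notch3 at 23.8, Acta2 at 13.9, Cspg4 at 12.3, Kcnj8 at 10.3, Tagln at 6.27, Des at 3.75 and Myh11 at 0.993 CPM per kb. The ranges over libraries of all neighbours in this order overlapped. Within libraries, Rgs5 exceeded Pdgfrb, Pdgfrb exceeded Abcc9, Notch3 exceeded Acta2, Kcnj8 exceeded Tagln and Des exceeded Myh11 in 6 of 6. Abcc9 exceeded Notch3 in 5 of 6, Acta2 exceeded Cspg4 in 4, Cspg4 exceeded Kcnj8 in 2 and Tagln exceeded Des in 3. Myh11, the heavy chain of smooth muscle myosin, was thus outranked in every library by genes of pericytes and also by Acta2 and Tagln.

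The genotypes were compared to ask whether transcripts of the neighbouring mural cells differ when Smad4 is deleted from the endothelium. By edgeR's quasi-likelihood test, 0 of the 10 members were called at an adjusted p under 0.05, against 0% of 14362 genes. The adjusted p was 1.00 for each member. An unadjusted p under 0.05 was reached by 0 members, against 188 genes or 1.31%. In CPM, 0 members had all 3 Smad4-iECKO libraries above all 3 Smad4f/f libraries, against 2.48% of genes, and 0 had all 3 below, against 2.83%. DESeq2 called 0 members, against 0.0611% of the genes it adjusted. Fold changes were positive for 7 members and negative for 3, with a median log2 fold change of 0.12, against 6923 positive and 7439 negative of all genes (median -0.017). This split depends on the scaling: with total counts alone Kcnj8 and Myh11 turned negative, and with scaling to the endothelial list Des turned positive.

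Among receptors, Notch3 encodes a Notch receptor of mural cells that maintains arterial smooth muscle. It stood at 174, 91.8 and 211 CPM in Smad4f/f and at 162, 694 and 249 CPM in Smad4-iECKO, given throughout in the order of replicates 1, 2 and 3. Smad4-iECKO replicate 2 was far above the rest, and Smad4-iECKO replicate 1 lay below 2 Smad4f/f libraries. Group means were 159 ± 60.8 and 368 ± 285 CPM (SD, n = 3 each), and the log2 fold change was 1.21 (standard error 0.56, 95% interval -0.04 to 2.47, edgeR, unadjusted p = 0.0571). Without Smad4-iECKO replicate 2 it was 0.35.

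In that library the summed CPM of 11 fibroblast genes was also highest, at 804, against 112 to 444 for Smad4f/f, and 309 and 529 for replicates 1 and 3 of Smad4-iECKO. Col1a2, a chain of fibrillar collagen, was at 294 CPM there and at 17.4 to 50.7 CPM elsewhere. The fibroblast markers Lum and Dpt were at 0 in all libraries, and Dcn was at 0 in 5 of 6. Of the 11, 6 were tested, and 4 of these had positive fold changes. The part of fibroblasts and of the low depth in the Notch3 value was not tested.

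Pdgfrb encodes the PDGF receptor by which pericytes are recruited. It was at 347, 94.4 and 234 CPM in Smad4f/f and at 173, 402 and 223 CPM in Smad4-iECKO. The highest value was a Smad4-iECKO and the lowest a Smad4f/f library, while between them both Smad4f/f libraries lay above both of Smad4-iECKO. The log2 fold change was 0.24 (standard error 0.50, 95% interval -0.89 to 1.37, edgeR). It turned to -0.21 without Smad4-iECKO replicate 2 and to -0.14 without Smad4f/f replicate 2.

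Cspg4 encodes NG2, a chondroitin sulphate proteoglycan on the pericyte surface. It was at 174, 37.9 and 147 CPM in Smad4f/f and at 93.2, 184 and 147 CPM in Smad4-iECKO. Only Smad4f/f replicate 2 and Smad4-iECKO replicate 1 were below 100 CPM. The log2 fold change was 0.24 (standard error 0.52, 95% interval -0.94 to 1.42, edgeR), and it was -0.01 without Smad4-iECKO replicate 2.

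Rgs5 encodes a regulator that shortens G protein signalling and is a standard pericyte marker. It was at 1485, 257 and 506 CPM in Smad4f/f and at 402, 417 and 651 CPM in Smad4-iECKO. A single library, Smad4f/f replicate 1, lay above the others, and the rest overlapped. The log2 fold change was -0.61 (standard error 0.59, 95% interval -1.95 to 0.72, edgeR). It turned to 0.36 without Smad4f/f replicate 1.

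Kcnj8 and Abcc9 encode the pore (Kir6.1) and the sulphonylurea receptor (SUR2) of the ATP-sensitive potassium channel of pericytes, and lie 16.2 kb apart on chromosome 6 in GENCODE M21. Kcnj8 was at 94.9, 14.02 and 23.5 CPM in Smad4f/f and at 25.9, 82.6 and 26.6 CPM in Smad4-iECKO, so that 1 library of each genotype was high. Its log2 fold change was 0.0062 (standard error 0.73, 95% interval -1.64 to 1.66, edgeR). Abcc9 was at 472, 109 and 281 CPM in Smad4f/f and at 201, 201 and 273 CPM in Smad4-iECKO, all 3 within the Smad4f/f range. Its log2 fold change was -0.35 (standard error 0.48, 95% interval -1.44 to 0.73, edgeR), and 0.20 without Smad4f/f replicate 1. Per kb, the log2 ratio of Kcnj8 to Abcc9 was -0.60, -1.24 and -1.86 for Smad4f/f and -1.24, 0.43 and -1.64 for Smad4-iECKO. Smad4-iECKO replicate 2 was the 1 library in which Kcnj8 exceeded Abcc9.

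Rgs5 and Abcc9 did not share the high level that Smad4-iECKO replicate 2 had for the other receptor and channel genes. Per kb, the log2 ratio of Rgs5 to Pdgfrb was 0.32 there and 1.38 to 2.36 in the other 5 libraries. The log2 ratio of Notch3 to Pdgfrb was 0.22 there and -1.56 to -0.40 in the others. The pericyte genes of this library thus stood in other proportions than elsewhere. It also had the lowest depth, 2233360 counts, and the highest CPM of the collagen genes Col1a1, Col1a2 and Col3a1. Other genes of the fibroblast list, Fbln1, Pdgfra and Twist1, lay within the range of the other libraries (7.43, 67.3 and 2.32 CPM). The part of the depth and of the collagen transcripts was not tested.

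The contractile genes were less abundant. Acta2 encodes smooth muscle alpha-actin, which contractile mural cells and myofibroblasts make. It was at 45.7, 9.54 and 13.7 CPM in Smad4f/f and at 29.5, 31.6 and 35.2 CPM in Smad4-iECKO. The Smad4-iECKO libraries lay close together, above 2 Smad4f/f libraries and below Smad4f/f replicate 1. Group means were 23.0 ± 19.8 and 32.1 ± 2.88 CPM (SD, n = 3 each), and the log2 fold change was 0.48 (standard error 0.55, 95% interval -0.76 to 1.73, edgeR). Without Smad4f/f replicate 1 it was 1.46, and without Smad4f/f replicate 2 it was 0.11.

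Tagln encodes transgelin (SM22), an actin-binding protein of early smooth muscle. It was at 15.7, 2.10 and 3.89 CPM in Smad4f/f and at 12.3, 17.6 and 12.7 CPM in Smad4-iECKO, the same arrangement as for Acta2 except that Smad4-iECKO replicate 2 was highest. The counts behind these values were 199, 51, 52, 221, 38 and 159. Group means were 7.22 ± 7.37 and 14.2 ± 2.999 CPM (SD, n = 3 each). The log2 fold change was 0.97 (standard error 0.70, 95% interval -0.62 to 2.55, edgeR, unadjusted p = 0.200), ranging from 0.52 to 2.23 when single libraries were left out.

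Myh11 did not share this arrangement. It was at 20.2, 3.58 and 6.73 CPM in Smad4f/f and at 4.05, 19.5 and 8.36 CPM in Smad4-iECKO, with 1 high library in each genotype. Its log2 fold change was 0.0046 (standard error 0.77, 95% interval -1.73 to 1.74, edgeR). Des, which encodes the intermediate filament desmin of muscle and pericytes, was at 32.1, 5.55 and 14.3 CPM in Smad4f/f and at 13.4, 23.7 and 13.9 CPM in Smad4-iECKO. Its log2 fold change was -0.05 (standard error 0.60, 95% interval -1.40 to 1.31, edgeR). Desmin also marks skeletal muscle, of which 12 genes summed to 19.4 to 25.1 CPM, most of it Ttn (12.1 to 18.1 CPM), with 10 of them at 0 in at least 1 library. Their part in the Des level was not tested.

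**Figure D3:**
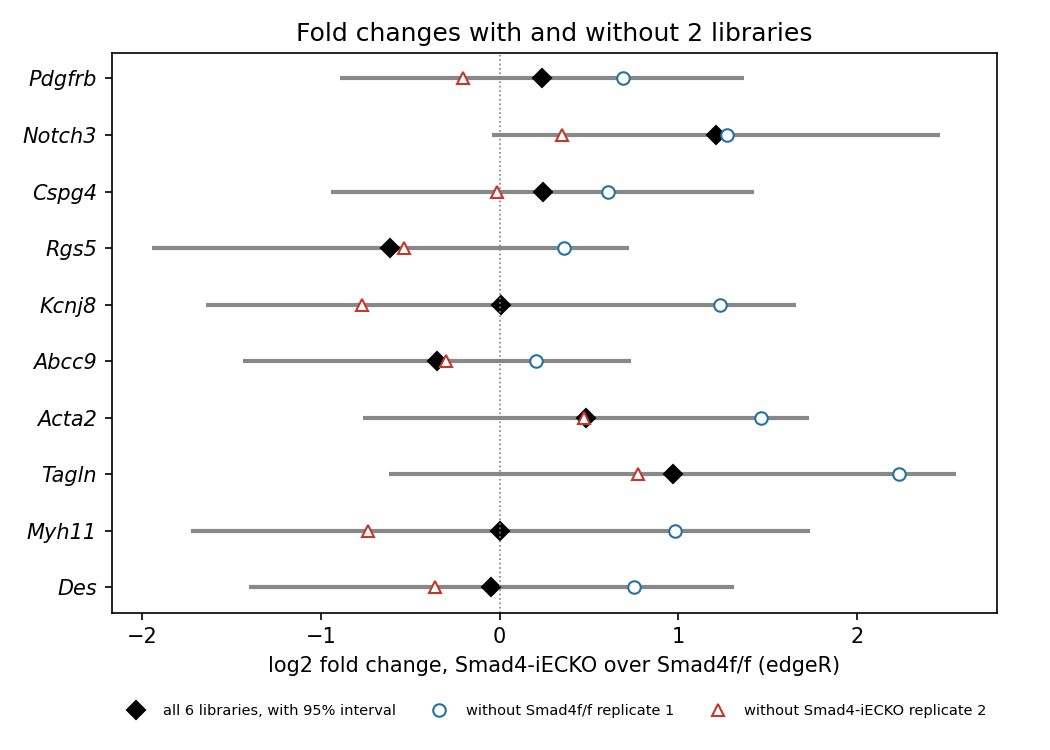
Log2 fold change of each marker, Smad4-iECKO over Smad4f/f, from edgeR with all 6 libraries (diamonds, bars for 95% intervals) and without either of a pair of libraries (open symbols). Every interval spans 0. Without Smad4f/f replicate 1 all 10 values are above 0, and without Smad4-iECKO replicate 2 only Notch3, Acta2 and Tagln are.

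Leaving out a single library turned most directions. Fold changes were positive for 10 of 10 members without Smad4f/f replicate 1, the library richest in endothelial transcripts. They were positive for 3 of 10 without Smad4-iECKO replicate 2, and also for 3 without Smad4f/f replicate 2. Sample titles begin with Lit38 (2 samples per genotype) or Lit40 (1 per genotype), and the labels do not say what the prefix means. With prefix 38 alone, the mean log2 CPM was lower in Smad4-iECKO for 7 members, by 0.45 (Cspg4) to 0.99 (Myh11), and higher for Notch3 (0.069), Acta2 (0.36) and Tagln (0.67). In the prefix 40 pair, which allows no test, all 10 were higher in Smad4-iECKO, by 0.70 (Rgs5) to 3.03 (Tagln). The endothelial list differed the same way, by -0.80 in prefix 38 and by 1.68 in prefix 40. Replicate 2 of both genotypes has prefix 40. The difference between the prefixes was not tested.

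**Figure D4:**
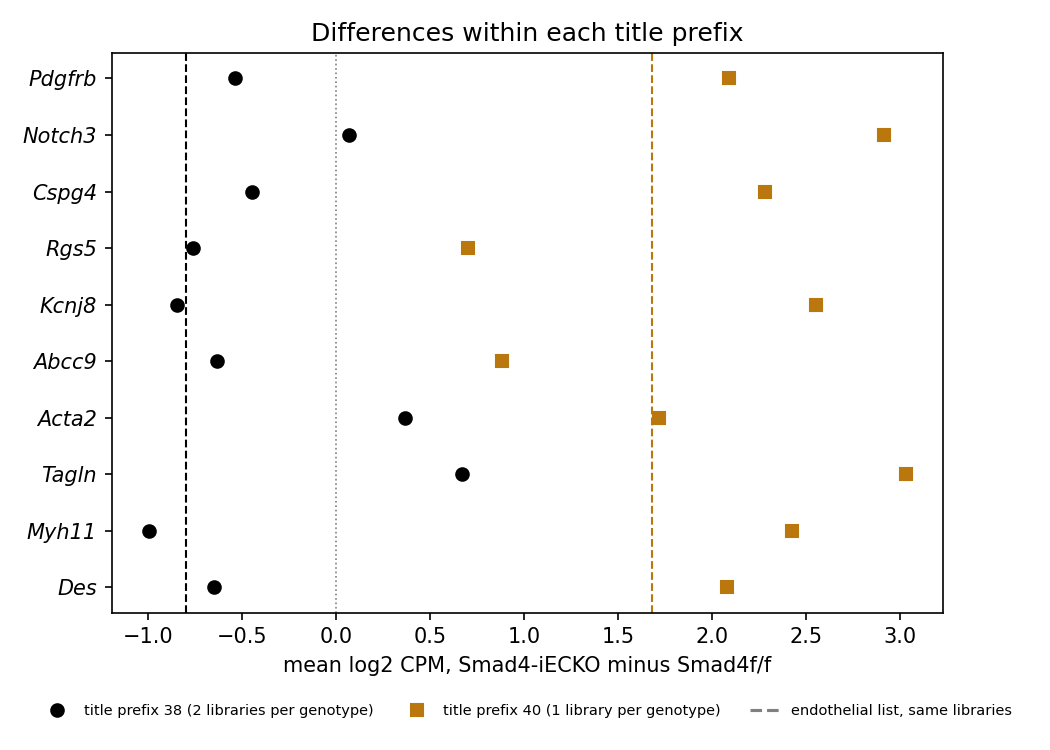
Difference in mean log2 CPM, Smad4-iECKO minus Smad4f/f, for each marker within title prefix 38 (circles, 2 libraries per genotype) and prefix 40 (squares, 1 per genotype), with dashed lines for the endothelial list (-0.80 and 1.68). All 10 markers are above 0 in prefix 40 and 3 are in prefix 38.

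The members were therefore also expressed relative to the endothelial list, as log2 CPM minus the list's mean log2 CPM in the same library. These differences set libraries against each other, not genes. Tagln was at -4.46, -4.82 and -5.53 for Smad4f/f and at -3.21, -3.47 and -3.85 for Smad4-iECKO, a mean difference of 1.43. Acta2 was at -2.92, -2.67 and -3.73 for Smad4f/f and at -1.95, -2.63 and -2.38 for Smad4-iECKO, a mean difference of 0.79, or 0.48 without Smad4f/f replicate 3. For both, all 3 Smad4-iECKO libraries lay above all 3 Smad4f/f libraries, for Acta2 with little distance between Smad4-iECKO replicate 2 and Smad4f/f replicate 2. The two-sided exact permutation p was 0.1 for each, the smallest that 3 against 3 allows, so that neither can pass 0.05. With the log2 of the summed endothelial CPM as reference instead, Tagln stayed apart (1.40, exact permutation p = 0.1). Acta2 overlapped on that scale (mean difference 0.76, exact permutation p = 0.2), whereas Cspg4 separated (0.40, exact permutation p = 0.1). The share of all genes separating on it was not taken.

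With the mean log2 CPM as reference, Acta2 and Tagln were 2 of 10 members, against 1.78% of all genes tested that were higher in this way. That share depends on Smad4f/f replicate 2, the library with the lowest endothelial mean (5.94). Subtracting a low mean raises genes there that do not follow the endothelial level. Without that library 3 members separated, against 16.5% of all genes, so the 1.78% is no measure of an excess among members. On this scale 0 of 10 were lower, against 0.927%. In the 4 libraries of prefix 38 alone, 3 members (Acta2, Tagln and Notch3) separated, against 43.9% of all genes, so that this count sets no member apart. The other 8 members overlapped, with exact permutation p from 0.2 (Cspg4) to 0.9 (Myh11). Notch3 differed by 0.99 (0.53 without Smad4f/f replicate 1 and 0.54 without Smad4-iECKO replicate 2) with p = 0.3 (exact permutation, two-sided), at -0.999, 0.58 and 0.20 for Smad4f/f and 0.50, 1.82 and 0.44 for Smad4-iECKO. Rgs5 and Abcc9 differed by -0.30 and -0.16, and by -0.056 and 0.063 without Smad4-iECKO replicate 2. The mean over all 10 members was at -1.62, -1.37 and -1.83 for Smad4f/f and at -1.18, -0.99 and -1.44 for Smad4-iECKO, where 1 pair of libraries overlapped.

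**Figure D5:**
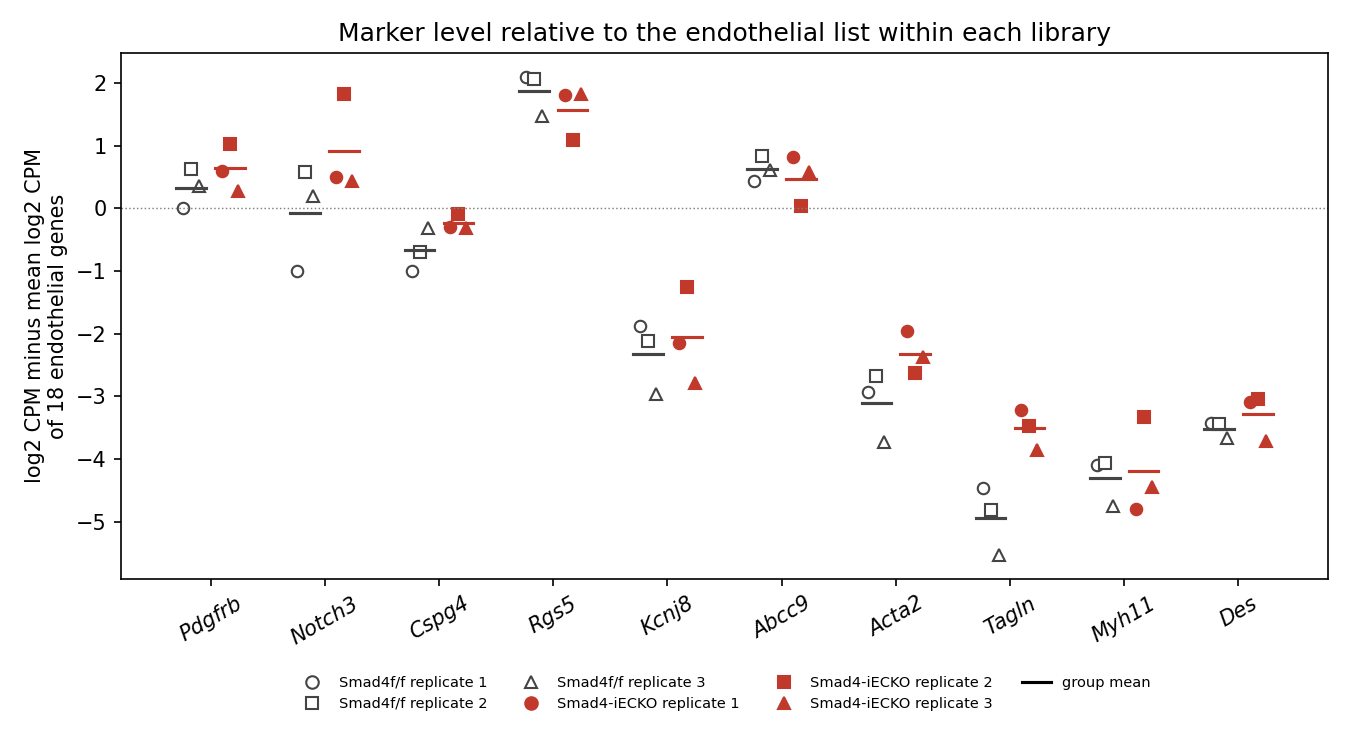
Log2 CPM of each marker minus the mean log2 CPM of 18 endothelial genes in the same library, with Smad4f/f as open and Smad4-iECKO as filled symbols and lines for group means (n = 3 each). The groups do not overlap for Acta2 and Tagln and overlap for the other 8 markers.

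Acta2 and Tagln were also set against other mural transcripts. Relative to the mean of Pdgfrb, Rgs5, Cspg4, Kcnj8 and Abcc9, a reference chosen after the data were seen, Tagln averaged -4.91 ± 0.48 for Smad4f/f and -3.59 ± 0.20 for Smad4-iECKO (log2, SD, n = 3 each). Acta2 was at -3.08 ± 0.42 and -2.40 ± 0.36, and Myh11 at -4.28 ± 0.28 and -4.27 ± 0.74. Groups did not overlap for Tagln and Acta2, against 1.55% of all genes higher in this way, and overlapped for Myh11. This reference, too, was lowest in Smad4f/f replicate 2, so the share has the same limit as that for the endothelial reference. For Acta2 the distance was narrow, with Smad4f/f replicate 2 at -2.815 and Smad4-iECKO replicate 2 at -2.797. Per kb, the log2 ratio of Tagln to Myh11 was 1.15 to 1.57 in Smad4f/f and 1.79 to 3.52 in Smad4-iECKO. It rests on low counts, in Smad4-iECKO replicate 2 on 38 for Tagln and 42 for Myh11. The share of all genes separating against Myh11 was not taken. The log2 ratio of Acta2 to Myh11 per kb overlapped, at 2.81 to 3.19 in Smad4f/f and 2.48 to 4.63 in Smad4-iECKO. In Smad4-iECKO replicate 2 it was below every Smad4f/f library. Myofibroblasts and fibroblasts can make both transcripts: Col1a2 was at 26.1, 17.4 and 25.4 CPM in Smad4f/f and 43.9, 294 and 50.7 CPM in Smad4-iECKO, and Col1a1 at 6.46, 2.22 and 5.68 against 9.21, 40.4 and 8.12 CPM. Both collagen genes were higher in all 3 Smad4-iECKO libraries, without passing the edgeR test after adjustment. The other 4 fibroblast genes tested overlapped between the groups, with positive log2 fold changes for Col3a1 (1.20) and Pdgfra (0.63) and negative ones for Fbln1 (-0.67) and Twist1 (-0.50), and Lum and Dpt were at 0 throughout. The part of fibroblast transcripts in the Acta2 and Tagln values was not tested.

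Other genes of the mural program gave no call by edgeR. Values are given for Smad4f/f against Smad4-iECKO (mean ± SD, n = 3 each). Of 18 further pericyte genes, all tested, 0 passed in either direction, 5 fold changes were positive and 13 negative (median log2 fold change -0.23). The 3 with the smallest p were Vtn, which encodes vitronectin, at 55.6 ± 32.3 against 28.5 ± 8.49 CPM, the forkhead factor gene Foxf2 at 81.1 ± 62.2 against 38.9 ± 16.3 CPM, and Higd1b at 20.3 ± 20.6 against 9.62 ± 2.37 CPM. Each was highest in Smad4f/f replicate 1. Of 16 further smooth muscle genes, 13 were tested and 0 passed, with 7 positive and 6 negative (median 0.0046). Among them Smtn, which encodes smoothelin, was at 104 ± 65.3 against 162 ± 101 CPM, Ppp1r14a at 5.28 ± 4.46 against 2.76 ± 1.62 CPM and Mustn1 at 2.05 ± 1.26 against 3.60 ± 2.91 CPM.

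Of 5 regulators of smooth muscle genes, 0 passed and 2 were positive. Myocd, the coactivator myocardin, was at 2.85 ± 0.97 against 2.46 ± 0.32 CPM. Mkl2 and Mkl1, which encode myocardin-related coactivators of serum response factor, were at 185 ± 76.6 against 138 ± 29.8 CPM and at 46.8 ± 12.9 against 61.7 ± 33.5 CPM. Foxc1, a forkhead factor of brain pericytes, was at 74.1 ± 64.2 against 48.5 ± 18.5 CPM. Srf, which encodes the serum response factor that binds the CArG box, was at 68.2, 52.5 and 49.3 CPM in Smad4f/f and 47.4, 90.5 and 57.2 CPM in Smad4-iECKO.

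Signals that reach mural cells were likewise not called by edgeR. Pdgfb, the endothelial ligand of the receptor encoded by Pdgfrb, was at 178, 33.5 and 131 CPM in Smad4f/f and 87.1, 251 and 126 CPM in Smad4-iECKO, overlapping and highest in Smad4-iECKO replicate 2. Of the 5 PDGF genes, 3 were positive and 2 negative, among them Pdgfd at 8.32 ± 5.36 against 3.45 ± 2.01 CPM. Pdgfra, the PDGF receptor of retinal astrocytes and fibroblasts, was at 131 ± 102 against 201 ± 166 CPM. Jag1, an endothelial ligand of Notch3, was at 267, 95.8 and 216 CPM in Smad4f/f and 135, 186 and 179 CPM in Smad4-iECKO. It did not share the high Notch3 value of Smad4-iECKO replicate 2, whereas the ligand gene Dll4 was at 194 CPM there and at 47.2 to 124 CPM elsewhere. Of 9 Notch3 ligands and targets, 4 were positive and 5 negative, and Nrip2, a smooth muscle target of Notch3, was at 2.53 ± 1.70 against 0.97 ± 0.12 CPM. The value of Smad4-iECKO replicate 2 rests on 2 counts, fewer than the 3 that set its floor of 1.39 CPM. The third by p was Dll1, at 31.4 ± 10.3 against 42.5 ± 15.6 CPM.

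Of 8 recruitment and adhesion genes, 0 passed by edgeR and 1 by DESeq2, with 6 positive and 2 negative. Angpt2, the antagonist ligand by which endothelial cells loosen pericyte contact, was at 21.4 ± 15.1 against 101.2 ± 22.2 CPM, higher in all 3 Smad4-iECKO libraries. Sphk1, which makes sphingosine-1-phosphate, was at 2.76 ± 1.05 against 5.79 ± 2.52 CPM, also without overlap, and Tgfb1 at 23.7 ± 14.02 against 43.9 ± 25.4 CPM. Angpt1, the stabilising ligand that pericytes make, was at 5.59, 3.87 and 4.11 CPM in Smad4f/f and at 5.66, 8.82 and 5.10 CPM in Smad4-iECKO. The pancreatic channel subunits related to Kcnj8 and Abcc9 were at 4.08 ± 0.42 against 3.74 ± 3.30 CPM (Kcnj11, at 0 in Smad4-iECKO replicate 2) and 19.3 ± 8.43 against 28.1 ± 17.4 CPM (Abcc8).

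The 5 genes whose pattern over the 6 libraries was closest to the mean of the members were Uaca, Capn2, Nrros, Chek2 and Tnfaip8l1. Their centred log2 CPM lay at a root mean square distance of 0.102 to 0.123 from that mean, against a median of 0.86 over 11988 genes. The members themselves lay at 0.16 (Des) to 0.64 (Notch3), with Tagln at 0.59. Uaca, the closest, was at 304, 55.1 and 143 CPM in Smad4f/f and 137, 267 and 161 CPM in Smad4-iECKO.

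For other cell types, summed levels overlapped between the groups for Mueller glia (796 to 1240 against 795 to 1061 CPM), rods, retinal astrocytes (41.3 to 160.1 against 94.3 to 314 CPM) and pigment epithelium (9.21 to 11.4 against 9.82 to 20.0 CPM). The 10 microglia genes summed to 34.7 to 59.9 CPM in Smad4f/f and 77.1 to 114 CPM in Smad4-iECKO, without overlap, with 9 of 10 fold changes positive and 0 called by edgeR. Their part in the Acta2 and Tagln values was not tested. Astrocyte transcripts led by Gfap were highest in Smad4-iECKO replicate 3 (261 CPM), which was not the highest library for any member.

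The authors' deposited table called 1 of the 10 members, Notch3, against 13.4% of its 14225 genes with an adjusted p. In the authors' deposited table the log2 fold change of Notch3 was 0.98 with a standard error of 0.27 (DESeq2 adjusted p = 0.00586). Tagln was next, at 0.71 with a standard error of 0.30 (DESeq2 adjusted p = 0.0939), in the authors' deposited table. The count table lists each sample in 3 columns with identical values. DESeq2 on all 18 columns, which counts each library 3 times, called 1 member, Notch3 (log2 fold change 1.23, DESeq2 adjusted p = 0.0062), and 12.1% of all genes. With 1 column per sample, DESeq2 gave Notch3 the same log2 fold change of 1.23, a standard error of 0.56 and an unadjusted p of 0.0293, which did not pass after adjustment over all genes.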

How the data were processed

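Counts were the authors' deposited whole-number read counts per gene, in 18 columns, 3 identical columns for each of 6 samples, of which 1 was used. The authors' deposited comparison table gave a mean normalized signal, log2 fold changes with standard errors, a test score and p-values, per the file headers. STAR, DESeq2 and the mm10 build are named in the submitters' processing notes, without versions. The counter and its annotation: not given in the sources used here. The library kit named in the labels does not mark strand, so overlapping antisense reads cannot be told apart. Groups came from the genotype label. Replicate numbers follow accession order and pair nothing.

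Genes were tested in edgeR 4.0.16 under R 4.3.3 (quasi-likelihood) with TMM scaling, no covariate and filterByExpr (minimum count 10, minimum total 15), with Benjamini-Hochberg adjustment over 14362 genes. Standard errors are the log2 fold change divided by the square root of F, and 95% intervals use the test's degrees of freedom. Log2 CPM used a prior count of 1. DESeq2 1.42.0 and limma 3.58.1 (voom) were alternatives, beside other scalings, no filter, the title prefix as a block, prefix 38 alone and leaving out each replicate. The code was tested on simulated data. Exon lengths and positions are from GENCODE M21. Figures were drawn with matplotlib 3.10.9. A count of 3 corresponds to 0.123 to 1.39 CPM, covering counting error only.

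CPM is counts per library total after TMM scaling. Members and gene lists were chosen with earlier results of these data known. All members, up to 3 genes per list with the smallest p, and Pdgfb, Pdgfra, Angpt1, Jag1 and Myocd were to be named. Srf, Lum, Dpt, Dcn, Fbln1, Twist1 and Ttn were named after their values were seen.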

Additional observations from a re-analysis of the deposited data

How the results depend on the processing

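The count of called members stayed at 0 under the alternatives run, leave-one-out fits included, except for 1 with DESeq2 on all 18 columns. Genes called stayed at 0 except for 12 with DESeq2 and 2235 on all 18 columns. Notch3, Acta2 and Tagln kept a positive fold change under all 15 alternatives, and the other 7 members turned under at least 1. The cause was not tested. With prefix 38 alone the log2 fold change was -0.57 for Pdgfrb, -0.43 for Cspg4, -1.19 for Kcnj8 and -1.15 for Myh11. With total counts it was -0.028 for Kcnj8 and -0.029 for Myh11. With the title prefix as a block it was -0.083 for Kcnj8, -0.074 for Myh11 and 0.096 for Des. With limma-voom it was -0.12 for Myh11 and 0.23 for Des. Scaling to the endothelial list gave 0.26 for Des and moved the median of all genes from -0.017 to -0.35. All 10 members lay above that median, but the scaling itself lowered it, so this sets no member apart.

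Leaving out single replicates gave -0.21 to 0.69 for Pdgfrb, -0.19 to 0.61 for Cspg4 and -1.02 to 0.36 for Rgs5. It gave -0.77 to 1.23 for Kcnj8, -0.74 to 0.20 for Abcc9, -0.74 to 0.98 for Myh11 and -0.48 to 0.75 for Des. Relative to the endothelial list the ranges were -0.15 to 0.62 for Kcnj8, -0.33 to 0.063 for Abcc9 and -0.31 to 0.42 for Myh11, 0.48 to 1.01 for Acta2, 0.53 to 1.32 for Notch3 and -0.51 to -0.056 for Rgs5. The members higher in every Smad4-iECKO library on that scale numbered 2 to 4 in these fits, against 1.98% to 16.5% of all genes (4 without Smad4-iECKO replicate 3, against 3.01%). With prefix 38 alone, added after the data were seen, they numbered 3, against 43.9% of all genes. With the summed endothelial CPM as reference instead, they numbered 2, but were Tagln and Cspg4, since Acta2 overlapped. The share of all genes separating against the summed CPM was not taken, so this count sets no member apart. Precision is limited by 3 samples per group and by 1 library of 2233360 counts, in which a count of 3 is 1.39 CPM. The 95% interval of every member spans 0.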
